A study of Rattus norvegicus with 3 samples.

Results

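Cyclic AMP (cAMP) is a small messenger made from ATP by adenylyl cyclases and broken down by phosphodiesterases. It releases the catalytic subunits of protein kinase A (PKA) from their regulatory subunits, and anchoring proteins hold the kinase at particular places in the cell. PKA then phosphorylates CREB family transcription factors, while exchange factors of the Rapgef type carry a second branch of the signal to the small G protein Rap. In Schwann cells, cAMP is known for its part in the step from precursor to myelin-forming cell. Described here are 60 genes of this pathway, taken by name from 17337 named rows of the deposited gene table. Their names begin with Adcy, Pde (with a number and at most 1 letter from a to d), Prkac, Prkar or Akap, or equal 1 of 8 listed factors, of which Crtc3 and Rapgef4 were not analysed here.

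RNA was sequenced from 3 libraries of Schwann cell precursors, the early glia of peripheral nerve. They were primary glia cultured from the dorsal root ganglia of rat embryos, of wild type genotype, left untreated in a modified Sato medium with a DMEM base. All 3 libraries form 1 group and no second condition was analysed here, so the data give levels and ratios of genes within these cultures. The labels give neither the supplements of the medium nor the embryonic age. Nothing states that each library is a culture of its own, so p-values reflect spread among 3 libraries that may be technical repeats. Total counts were between 14139074 and 15309526 per library. Levels are in TPM, a count per length of gene scaled so that each library has the same sum, and are given as mean ± SD over the libraries (n = 3) unless each library is given.

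Markers of the labelled cell type were read beside those of other cell types. All 10 Schwann cell precursor markers, among them Sox10 and Erbb3, were above 1 TPM, with a summed level of 4707 to 4763 TPM in the libraries. The lowest of them, Fabp7, had 11, 11 and 20 counts. All 6 fibroblast markers (summed 8283 to 8483 TPM) and all 7 sensory neuron markers (744 to 768 TPM) were above 1 TPM too, as were 4 of 6 macrophage markers (24.7 to 29.8 TPM) and 3 of 5 endothelial markers (summed at most 36.4 TPM). In the limma test described below, 78.4% of all genes with a count were above 1 TPM. The numbers of markers above that level therefore do not single out a cell type. None of these markers was without a count in all libraries, and the endothelial Pecam1 had 0, 2 and 1 counts. How much of the RNA of the cAMP genes came from each kind of cell was not tested, and in bulk RNA fewer cells of a type and less RNA per cell cannot be told apart.

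Every library gave 1 TPM or more for 47 of the 60 genes (78.3%), where 60.6% of all rows reached that level, and 4 had no count in any library, as had 23.0% of all rows. The other 56 were tested against 1 TPM with limma on log2(TPM + 1), with p-values adjusted by Benjamini-Hochberg over all 13345 genes with a count. In that test 47 (83.9%) were above, where 78.4% of all genes tested were, and 8 were below, where 17.8% were, so the shares called lay near those of the whole table. The median over the 60 genes was 14.6 ± 0.496 TPM beside 8.38 ± 0.159 TPM over all rows, but over genes with a count the order turned, at 18.3 ± 0.335 TPM for the 56 genes and 21.7 ± 0.195 TPM for all. Only Pde4c passed in neither direction. The plot of levels by library shows 2 genes, Prkar1a and Akap12, that reached 100 TPM in every library, as did 11.7% of all rows.

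**Figure D1:**
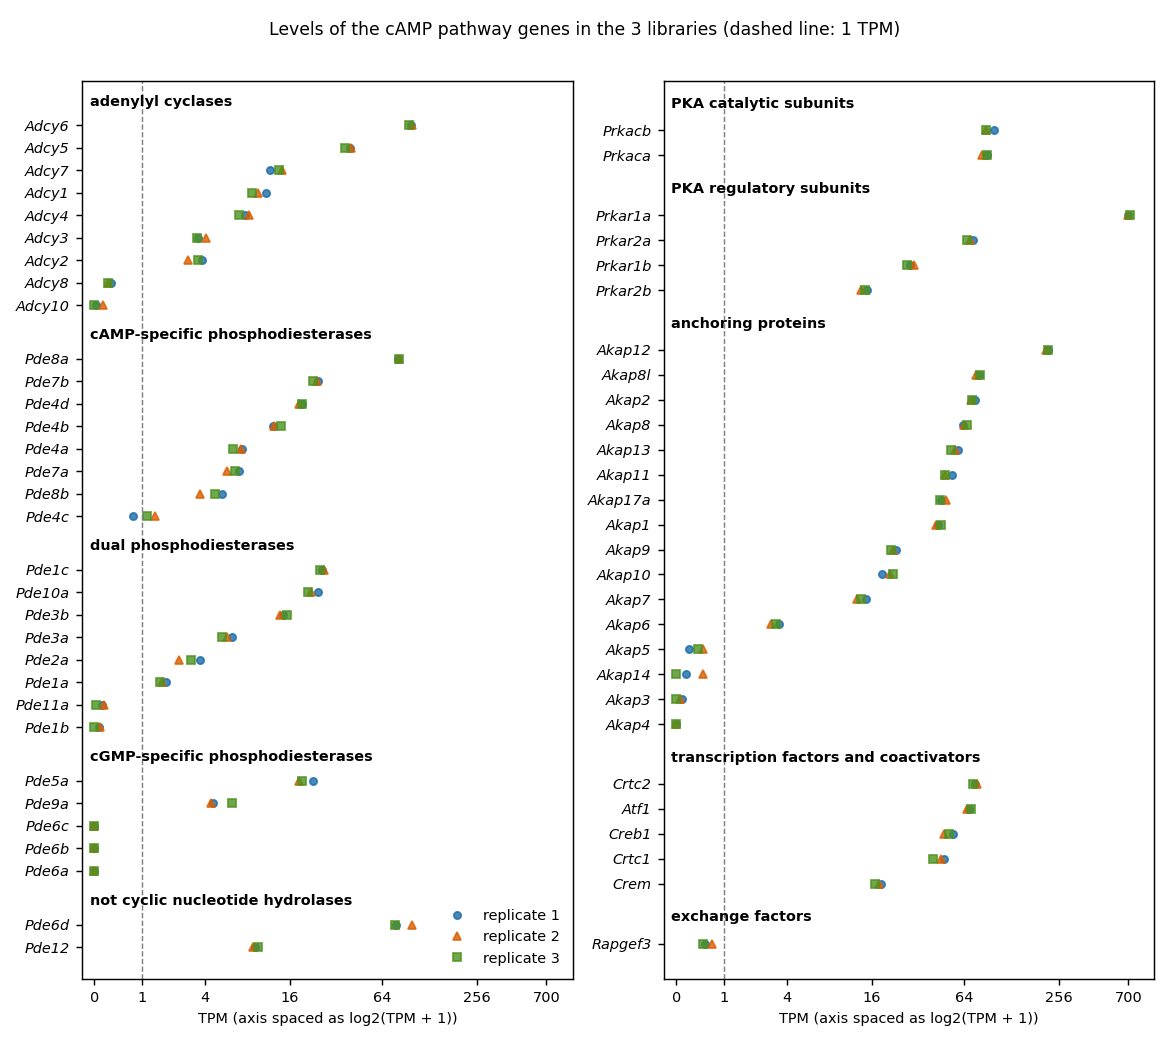
Level of each of the 60 genes in TPM (horizontal axis, spaced as log2(TPM + 1)) in replicates 1, 2 and 3 (circle, triangle, square), grouped by role and ordered by mean level; the dashed line marks 1 TPM. Prkar1a at 703 TPM is the highest of the 60 genes, Prkacb and Prkaca lie together, and Pde6a, Pde6b, Pde6c and Akap4 have no count.

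The adenylyl cyclases were led by Adcy6, a form that calcium inhibits. Adcy6 was at 97.9, 98.4 and 94.9 TPM in replicates 1, 2 and 3. Its close relative Adcy5, also inhibited by calcium, was at 39.4, 40.5 and 37.0 TPM. The ranges of the pair did not overlap, and together they made up 78.1 ± 0.270% of the summed cyclase level of 174 ± 5.19 TPM, with Adcy6 alone at 55.7 ± 0.613%. In rn6, Adcy6 (gene ID 25289) spans 140270692 to 140291620 of chromosome 7, minus strand, with 23 separate exon stretches in the authors' table.

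Lower cyclases were present at several levels. Adcy7, which G protein beta-gamma subunits can stimulate, was at 11.8, 14.2 and 13.6 TPM. The calmodulin-stimulated Adcy1, best known from neurons, was at 11.1, 9.76 and 8.85 TPM, so that its highest library stayed under the lowest of Adcy7. Adcy4 was at 7.82 ± 0.663 TPM, Adcy3 (the cyclase of olfactory neurons) at 3.49, 4.07 and 3.40 TPM and Adcy2 at 3.40 ± 0.459 TPM, and the ranges of Adcy3 and Adcy2 overlapped. A pair of the 9 cyclases was below 1 TPM by limma, where 17.8% of all genes tested were. Adcy8, which is calmodulin-stimulated like Adcy1, had 9, 7 and 7 counts (0.236 ± 0.0254 TPM), and Adcy10, the bicarbonate-sensitive soluble cyclase, had 1, 5 and 0 counts.

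Genes of a role were also compared within libraries, as log2 ratios of TPM to 1 reference gene per role, with 0.1 TPM added to each gene. The plan set the reference by role and not by level, but earlier results of these data were known when the members were chosen. Limma was fitted to the ratios of all genes in the table. In the cyclase comparison all 8 other cyclases were lower than Adcy6, as were 83.0% of all genes, and 15.4% of all genes were higher. Since Adcy6 was the highest cyclase by mean level, these cyclase calls restate the order of levels given above. The log2 ratio was -1.32 ± 0.04 (SE) for Adcy5, a 2.49-fold difference, -2.88 ± 0.07 for Adcy7 and -3.29 ± 0.08 for Adcy1. All ratios to a reference share that gene's own deviations, which makes the limma p-values of these fits too small. A fit added after seeing the data, which takes the spread of each gene separately, gave the same call for each of the 50 ratios. Its adjusted p is the one printed below, while the SE beside each ratio is that of the first limma fit.

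**Figure D2:**
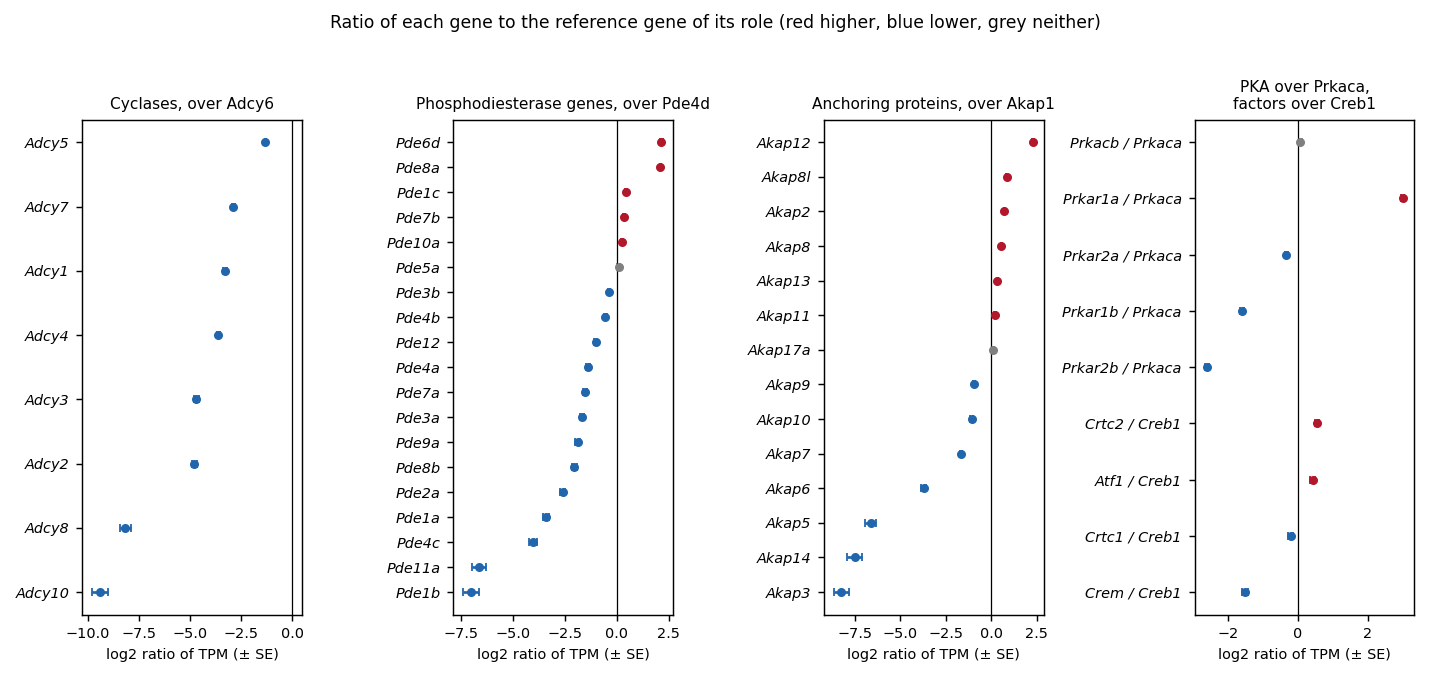
Log2 ratio of TPM of each gene to the reference gene of its role (horizontal axis, point ± SE from limma over 3 libraries), with 0.1 TPM added to each gene. All other cyclases lie below Adcy6. By the test 5 genes, with Pde6d among them, were higher than Pde4d and 6 were higher than Akap1. Prkar1a lies at 3.01 over Prkaca, and the 3 ratios drawn in grey passed in neither direction.

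Among the phosphodiesterases, Pde8a was the highest that breaks down cyclic nucleotides. This cAMP-specific enzyme of high affinity was at 80.0, 81.6 and 81.4 TPM. It held 31.8 ± 0.985% of the summed level of the 21 genes for cyclic nucleotide phosphodiesterases, and the cAMP-specific Pde4, Pde7 and Pde8 genes together held 61.1 ± 0.943%. Pde8a exceeded Pde4d by a log2 ratio of 2.09 ± 0.03 (SE), or 4.27-fold. Of 17 genes for cyclic nucleotide phosphodiesterases with a count, other than Pde4d, 4 were higher than it, where 51.0% of all genes were, and 12 were lower, where 45.7% were.

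The Pde4 genes encode the enzymes that rolipram blocks. Pde4d led them at 19.2, 18.4 and 19.2 TPM, and Pde4b followed at 12.2, 12.5 and 13.97 TPM without overlap. Pde4a was at 7.13 ± 0.592 TPM. Pde4c had 12, 21 and 17 counts, or 0.752, 1.41 and 1.14 TPM, on both sides of 1 TPM (limma adjusted p = 0.573 against that level). The 4 genes together made up 25.7 ± 0.380% of the cAMP-specific level. The pair of Pde8 genes made up 54.9 ± 0.353%, although Pde8b was at only 5.36, 3.60 and 4.73 TPM. Of the Pde7 genes, Pde7b was at 24.5, 24.0 and 22.7 TPM, above Pde4d in each library (log2 ratio 0.33 ± 0.05), and Pde7a was at 6.55 ± 0.643 TPM, in the range of Pde4a.

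Enzymes that break down both cAMP and cGMP were led by Pde1c and Pde10a. Pde1c, which calcium and calmodulin activate, was at 26.2, 26.9 and 25.2 TPM, and Pde10a, best known from the striatum, at 24.4, 22.1 and 21.0 TPM. Both were called higher than Pde4d, with log2 ratios of 0.46 ± 0.05 and 0.25 ± 0.06 (adjusted p = 0.0100 for Pde10a). Of the cGMP-inhibited genes, Pde3b at 14.3, 13.8 and 15.3 TPM stood above Pde3a at 6.32, 5.82 and 5.39 TPM. The cGMP-stimulated Pde2a was at 3.65, 2.43 and 3.09 TPM and Pde1a at 1.70 ± 0.110 TPM. Pde1b, with 1, 1 and 0 counts, and Pde11a, with 4, 5 and 1, were below 1 TPM by limma. In these listings the exons of Pde11a overlap those of Cyct on the same strand by 396 bases, and Cyct was at 0 TPM. Whether the shared stretch affected the count of either gene was not tested.

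Of the cGMP-specific genes, Pde5a, the target of sildenafil, was at 22.7, 18.5 and 19.4 TPM and did not pass against Pde4d in either direction (log2 ratio 0.09 ± 0.06, adjusted p = 0.295). Pde9a was at 4.62, 4.40 and 6.38 TPM, with replicate 3 highest. The photoreceptor genes Pde6a, Pde6b and Pde6c had no count, where 3 counts would give at most 0.169 TPM in any of the libraries. The chosen names also take in a pair of genes whose products do not break down cyclic nucleotides. Pde6d, a chaperone for lipid-modified proteins, was at 78.3, 99.5 and 77.0 TPM, and Pde12, a mitochondrial enzyme acting on RNA, at 9.33 ± 0.408 TPM. The high value of Pde6d in replicate 2 lay outside the counting intervals of both other libraries (92.5 to 107 TPM, against 72.2 to 84.6 and 70.8 to 83.6, 95% exact Poisson).

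**Figure D3:**
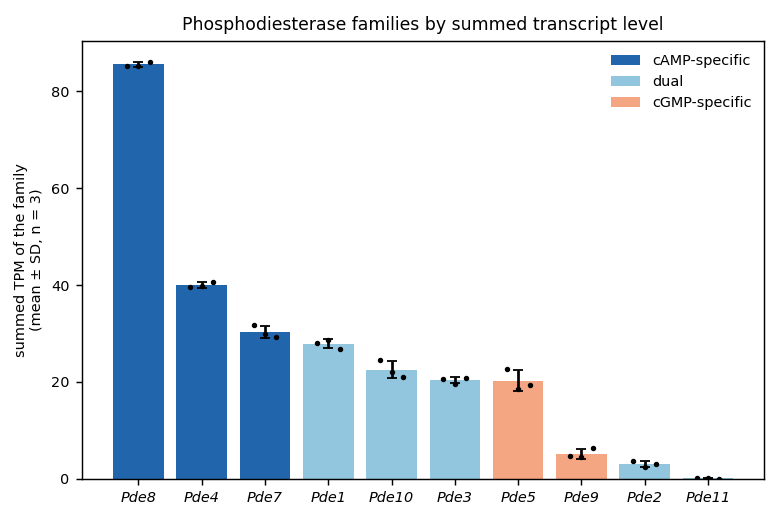
Summed TPM of each phosphodiesterase family (vertical axis; bars are means ± SD over 3 libraries, points are libraries), colored by the cyclic nucleotide the family breaks down. Pde8 genes sum to 85.6 TPM, Pde4 genes to 40.1 and Pde7 genes to 30.3, and the Pde6 family, without a count in its 3 catalytic genes, is not drawn.

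The catalytic subunits of PKA were expressed at like levels. Prkaca was at 89.8, 83.5 and 89.0 TPM and Prkacb at 99.2, 88.1 and 87.9 TPM, with overlapping ranges. Their log2 ratio was 0.07 ± 0.04 (adjusted p = 0.207), and Prkaca made up 48.8 ± 1.40% of the sum. This near equality rests on the listed lengths, since Prkaca had 1279 to 1478 counts over 2227 bases and Prkacb 679 to 822 over 1122 bases.

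The regulatory subunits were unequal. Prkar1a, the type I alpha subunit that holds the kinase inactive in the absence of cAMP, was at 693, 701 and 715 TPM, above the levels of 98.8% of all rows. Prkar2a, of the membrane-anchored type II, was at 72.4, 69.5 and 66.4 TPM. Prkar1b was at 28.6, 30.4 and 27.5 TPM and Prkar2b, best known from neurons and fat, at 14.9, 13.6 and 14.5 TPM. None of these ranges overlapped. Prkar1a made up 86.2 ± 0.595% of the regulatory level of 815 ± 7.49 TPM.

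Against Prkaca, Prkar1a was higher by a log2 ratio of 3.01 ± 0.04, or 8.03-fold, where 16.8% of all genes were higher. The 3 other regulatory genes were lower, by log2 ratios of -0.33 ± 0.04 for Prkar2a, -1.60 ± 0.06 for Prkar1b and -2.60 ± 0.06 for Prkar2b, where 80.8% of all genes were lower. The summed regulatory level was 4.28, 4.74 and 4.65 times the summed catalytic level in the libraries, and 0.613, 0.661 and 0.612 times without Prkar1a. In rn6, Prkar1a (gene ID 25725) lies on the plus strand of chromosome 10 from 97940705 to 97957336 with 11 exons listed, and Prkaca (25636) on the plus strand of chromosome 19 from 25095089 to 25118867 with 10.

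Protein inhibitors of PKA, which block the free catalytic subunit, were read from the same fit. Pkig was at 122, 135 and 124 TPM and Pkia at 31.7, 30.4 and 32.3 TPM. Both were above 1 TPM, as were 78.4% of all genes tested. Pkib had 15, 8 and 9 counts (0.968 ± 0.300 TPM) and passed in neither direction (limma adjusted p = 0.735). The inhibitors summed to 0.894 ± 0.0745 times the catalytic level.

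Anchoring proteins are known for tethering PKA through its regulatory subunits. The genes of this role were taken by the name Akap, and whether each product binds PKA was not tested. They numbered 16, of which 12 were above and 3 below 1 TPM, and Akap4 had no count. Of the 15 with a count 80% were above, near the 78.4% of all genes tested, of which 17.8% were below. Akap12 (gravin), a scaffold at the plasma membrane, led at 219, 210 and 217 TPM and held 31.3 ± 0.191% of the summed level of 688 ± 11.7 TPM. Next came Akap8l at 79.7, 76.2 and 81.2 TPM, Akap2 (Pakap in current RefSeq) at 75.3, 70.9 and 71.4 TPM, and Akap8 at 63.0, 63.7 and 67.1 TPM. Akap8 and Akap8l encode nuclear proteins and are neighbours on chromosome 7, where Akap8 ends at 14339853 and Akap8l starts at 14340169 in rn6.

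The next group was close in level. Akap13, a large scaffold, was at 58.4, 55.6 and 52.6 TPM, and Akap11 at 53.8, 48.0 and 48.4 TPM. Akap17a, a splicing regulator, was at 45.3, 48.9 and 44.8 TPM, and Akap1, the anchor at the outer mitochondrial membrane, at 43.8, 42.1 and 45.2 TPM. Each neighbouring pair in this order overlapped. Against Akap1, 6 anchoring genes were higher (31.7% of all genes were) and 7 lower (64.6% were), and Akap17a was neither (log2 ratio 0.08 ± 0.05, adjusted p = 0.145). The log2 ratio was 2.30 ± 0.04 for Akap12, or 4.92-fold, and 0.19 ± 0.05 for Akap11. Without replicate 1 the ratio of Akap11 was 0.14 and its limma adjusted p was 0.0824, and without replicate 3 that of Akap17a was 0.13 with 0.0170.

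Anchors of the Golgi and centrosome (Akap9, 22.4 ± 0.859 TPM), Akap10 (20.7 ± 1.72 TPM, overlapping Akap9) and Akap7 (13.7 ± 1.05 TPM) were lower. Akap6, the anchor at the nuclear envelope of muscle cells and neurons, was at 3.44, 2.98 and 3.24 TPM. The postsynaptic anchor Akap5 had 4, 9 and 7 counts, and Akap14 and Akap3, known from cilia and sperm, had 2, 6 and 0 and 2, 1 and 0 counts. These 3 genes were below 1 TPM by limma, and without replicate 1 the call on Akap14 was lost (adjusted p = 0.0519). Akap4, of the sperm tail, had no count. In all, 11 of 48 neighbouring pairs in the order of levels within roles had overlapping ranges, 7 of them among the 15 anchoring pairs. Those 7 include Akap5 with Akap14, Akap14 with Akap3 and Akap3 with Akap4, which had few or no counts. No such share was computed over all genes.

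All 5 genes of the nuclear end of the pathway were above 1 TPM, as were 78.4% of all genes tested. Crtc2, a coactivator that enters the nucleus when cAMP rises, was at 74.6, 77.0 and 72.9 TPM, and Crtc1, better known from neurons, at 47.2, 45.4 and 40.1 TPM. Of the factors that bind DNA, Atf1 was at 68.6, 66.4 and 70.7 TPM, Creb1 at 54.5, 47.7 and 50.8 TPM and Crem at 18.5, 17.9 and 16.9 TPM. Neighbours in this order did not overlap. Against Creb1, Crtc2 and Atf1 were higher by log2 ratios of 0.55 ± 0.07 and 0.43 ± 0.07, where 27.8% of all genes were higher. Crem at -1.51 ± 0.08 and Crtc1 at -0.21 ± 0.07 were lower, where 67.9% of all genes were. Without replicate 3 the ratio of Crtc1 was -0.14 and did not pass (limma adjusted p = 0.309). Partners of these factors were above 1 TPM in 3 of 3 cases, where 78.4% of all genes tested were. Sik3 and Sik1, of the kinase family that keeps CRTC proteins in the cytoplasm, were at 49.0 ± 1.75 and 2.69 ± 0.247 TPM. The acetyltransferase Crebbp was at 22.4 ± 1.01 TPM.

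CREB proteins bind the cAMP response element, whose full letters are TGACGTCA, the same on both strands, and whose short form is TGACG, searched on both strands and contained in the full form. Promoter windows from RefSeq (build GRCr8, 250 bases before to 50 bases after an annotated start) were matched for 47 of the 60 genes, in 64 windows. The full element stood in 3 of these windows (4.69%), beside 1.83% of all 33469 windows, and the short form in 19 (29.7%), beside 21.2%. Crem, which is known for an internal start that cAMP switches on to make a short repressor, had the element in 2 of its 3 windows, and Akap17a had it in its 1 window. The stretches around these matches are shown because the element is what the factors above bind, with its letters in capitals and positions counted with the annotated start as 0.
Crem, window chr17:58984547-58984846, plus strand, match at -56: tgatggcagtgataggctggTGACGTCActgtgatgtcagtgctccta
Crem, window chr17:58985240-58985539, plus strand, match at -35: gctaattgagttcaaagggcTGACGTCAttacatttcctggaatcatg
Crem, the same window, match at 39: agctgcacatTGACGTCAgct
Akap17a, window chr12:21428198-21428497, minus strand, match at -212: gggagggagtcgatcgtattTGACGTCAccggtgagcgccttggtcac
A match describes the letters only, and whether a factor binds there in these cells was not tested. Reads were summed over all forms of Crem, whose 42 listed exon entries merge into 12 stretches over 4735 bases (chromosome 17, plus strand, 57021704 to 57090888 in rn6), so its level does not separate the repressor from the other forms.

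Known targets of CREB were read from the same fit as a list of 14 genes, and 13 were above 1 TPM and none below, where 78.4% of all genes tested were above and 17.8% below, with a median of 18.2 ± 0.478 TPM. Fos was at 146, 169 and 149 TPM, Junb at 79.3, 99.5 and 85.9 TPM, and Egr1 at 85.0, 94.5 and 82.6 TPM. Replicate 2 was highest for these 3 immediate early genes and also for Nr4a1, Per1, Ppargc1a and Areg of the list. It was highest for 30.3% of all genes with a mean of 10 TPM or more. The remaining genes of the list, such as Gem and Inhba, were highest in replicate 3 or 1. The nuclear receptor gene Nr4a1 was at 76.0 ± 2.29 TPM, Per1 of the clock at 24.6 ± 1.24 and the growth factor gene Bdnf at 3.84 ± 0.244. Areg, with 6, 7 and 6 counts (0.790 ± 0.0931 TPM), passed in neither direction (limma adjusted p = 0.0549). Many of these genes are known to answer to other signals as well. The 11 with a promoter window had 16 windows, of which 3 (18.8%) held the full element, beside 1.83% of all windows, and 9 (56.2%) the short form, beside 21.2%. The list was made of genes known as CREB targets, so these shares are a description only. The 3 full matches are shown for comparison with those of Crem.
Dusp1, window chr10:17184603-17184902, plus strand, match at -124: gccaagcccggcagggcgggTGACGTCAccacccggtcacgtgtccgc
Areg, window chr14:17265592-17265891, minus strand, match at -91: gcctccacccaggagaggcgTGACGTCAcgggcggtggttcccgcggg
Ppargc1a, window chr14:63634058-63634357, plus strand, match at -181: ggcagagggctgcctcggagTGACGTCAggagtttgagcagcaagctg
The levels of these 3 genes differed widely, with Dusp1, a phosphatase of MAP kinases, at 21.6 ± 0.375 TPM and the metabolic coactivator Ppargc1a at 10.6 ± 0.396, both above Areg. Of the Schwann cell genes known to rise with cAMP, 4 were read here. All 4 were above 1 TPM, as were 78.4% of all genes tested. The myelin genes Mbp and Pmp22 were at 18.7 ± 1.08 and 628 ± 18.9 TPM, and the regulators Egr2 and Pou3f1 at 52.3 ± 2.45 and 147 ± 11.7 TPM.

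Of the exchange factors, only Rapgef3 was measured. Rapgef3 (Epac), which loads Rap with GTP when it binds cAMP, had 13, 16 and 11 counts, or 0.524, 0.693 and 0.476 TPM, and was below 1 TPM by limma. Its targets Rap1b at 426, 430 and 420 TPM and Rap1a at 229, 220 and 228 TPM were abundant, as was Sipa1, which switches Rap off, at 149 ± 4.49 TPM. All 4 genes of the Rap list were above 1 TPM. Of all genes tested, 78.4% were above and 17.8% below. Other proteins that sense or export cAMP were 6 above and 2 below 1 TPM of 11. They were led by the exporter Abcc4 at 15.7 ± 0.966 TPM, and the channel genes Cnga1, Cnga2 and Cnga3 had no count.

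Upstream of the cyclases, all 9 G protein subunit genes were above 1 TPM, as were 78.4% of all genes tested. Gnas, the stimulatory alpha subunit, was at 323, 331 and 332 TPM. The inhibitory Gnai2 was at 740, 746 and 756 TPM, above Gnas in each library, and Gnai3 was at 168 ± 4.86 TPM. Of all genes tested, 78.4% were above and 17.8% below 1 TPM. Among 19 genes for receptors that raise cAMP, or their accessory proteins, 10 were above, 8 were below and Vipr1 had no count. The median of these 19 genes was 1.34 ± 0.196 TPM. The highest were the accessory genes Ramp3 at 66.4, 66.7 and 70.6 TPM, Ramp1 at 52.6, 54.9 and 47.5 and Ramp2 at 44.6, 47.3 and 53.0. Their partner receptor Calcrl was at 5.75, 5.14 and 4.86 TPM. Among true receptors the adenosine receptor Adora2b at 11.6, 12.1 and 11.9 TPM and the parathyroid hormone receptor Pth1r at 10.3 ± 0.742 TPM were highest, and their ranges did not overlap. Adrb1 with 0, 0 and 1 counts, Adcyap1r1 at 0.318 ± 0.0575 and Ptger2 at 0.489 ± 0.0543 TPM were below.

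**Figure D4:**
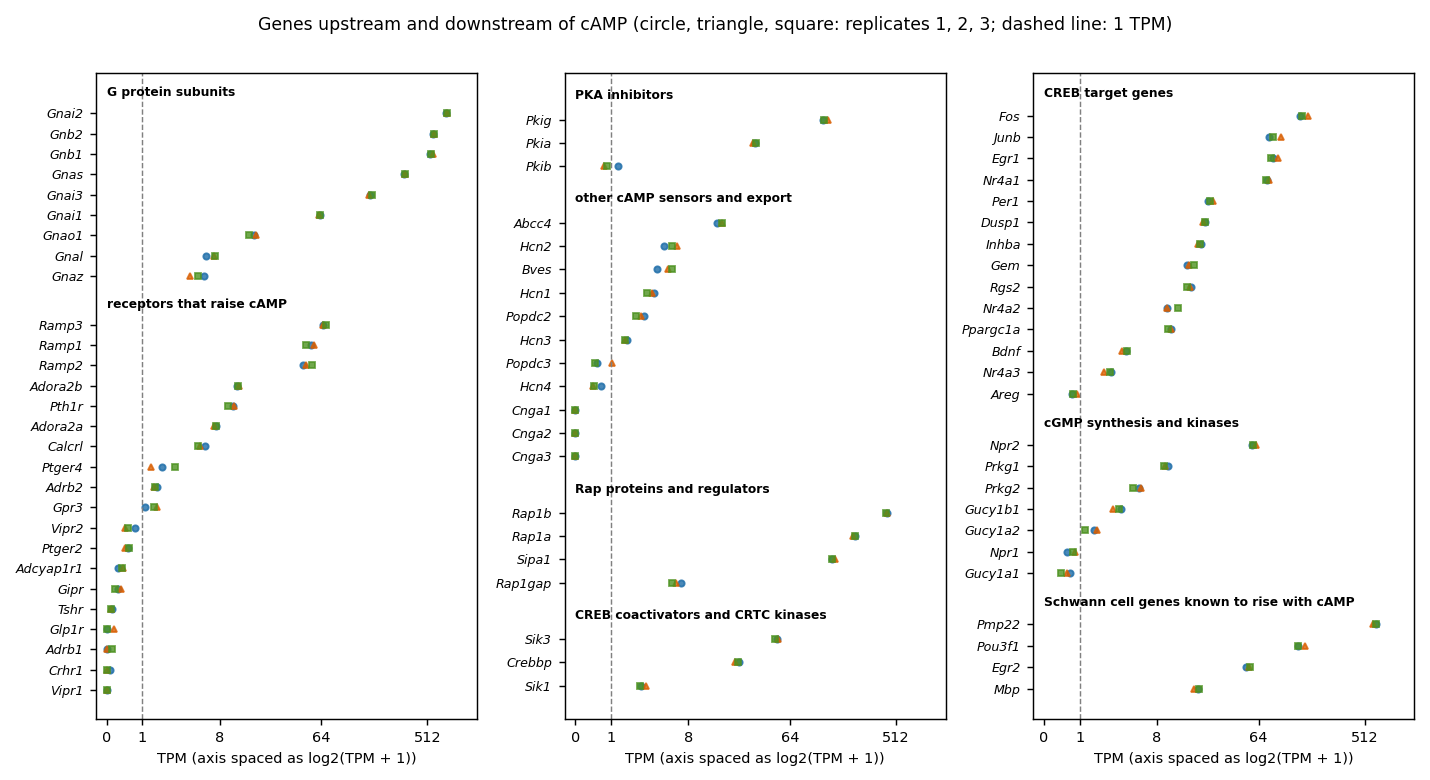
Levels in TPM (horizontal axis, spaced as log2(TPM + 1)) of genes upstream and downstream of cAMP in replicates 1, 2 and 3 (circle, triangle, square), by list; the dashed line marks 1 TPM. Most G protein subunit and Rap genes lie far to the right of most receptor genes, whose median was 1.34 TPM. Gnaz, Rap1gap and Gnal, at 4.90 to 6.73 TPM, lie lower, under the receptor genes Adora2a, Pth1r and Adora2b. CREB target genes range from Areg at 0.790 to Fos at 155 TPM.

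For cGMP, which several of the phosphodiesterases above break down or are controlled by, 5 of 7 genes for synthesis and kinases were above and 2 below 1 TPM. Of all genes tested, 78.4% were above and 17.8% below. Npr2, the receptor cyclase for C-type natriuretic peptide, was at 56.4, 61.1 and 57.2 TPM, and the kinase gene Prkg1 at 9.73 ± 0.420 TPM. Npr1 at 0.713 ± 0.132 and Gucy1a1 at 0.534 ± 0.142 TPM were below.

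Levels were close between libraries. None of the 34 cAMP pathway genes with a mean of 10 TPM or more had a highest library over 1.5 times the lowest, where 0.227% of all genes at that level had. Their median ratio of highest to lowest was 1.09, beside 1.08 for all such genes. With a mean of 1 TPM or more, 2 of 48 passed 1.5, namely Pde4c at 1.88 times and Pde2a just over the limit (73 to 118 counts), where 4.86% of all such genes did. Counting intervals were apart between libraries for 4 genes, or 7.14% of the 56 with a count, where 8.27% of all genes with a count had intervals apart. They were Pde5a, Akap13, Akap11 and Pde6d.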

How the data were processed

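RNA was sequenced from 3 libraries prepared with a stranded kit for mRNA, per the labels' protocols. The submitters' processing notes name STAR 2.5.2b, Subread and rn6. The annotation, the strand setting and the treatment of multiply mapped reads are not stated there or in the labels. The authors deposited raw counts per gene, gene lengths and TPM computed from them. Their TPM differed from TPM recomputed here by at most 0.0005. Counts over length and 6 columns of library totals were not used, and 2 rows naming no gene were dropped. A ratio between genes rests on the listed lengths. None of the 60 genes was listed at more than 1 place.

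The members and lists were chosen with earlier results of these data known. In limma 3.58.1 under R 4.3.3, levels on the log2(TPM + 1) scale were tested against 1 TPM, and ratios as log2 of TPM with 0.1 added, against the references Adcy6, Pde4d, Prkaca, Akap1 and Creb1, two-sided, with Benjamini-Hochberg adjustment over all genes with a count and a threshold of 0.05. The fits were tested on simulated data. Alternatives included edgeR 4.0.16 on the counts with an offset for length. Named genes were the 4 highest of each role, all genes of roles with up to 6, those under 1 TPM in every library, those passing in neither direction, and those with a highest library over 1.5 times the lowest. Of the other pathway lists, the 3 highest and those under 1 TPM could be named. Further genes were chosen after their values were seen. Counting intervals (95% exact Poisson) and floors of 3 counts cover counting error only, as amplified reads are not independent molecules. A chi-square per degree of freedom of 1.67 to 2.36 between pairs of libraries gave no pair that differed by less than sampling noise. Planned protein comparisons of PKA subunits and CREB factors were not made. Promoter windows and current symbols came from RefSeq tables (GRCr8), where all 60 gene IDs matched, and Adgrg6, Ep300 and Sik2 of the lists were not used here. Of the Schwann cell genes known to rise with cAMP, 1 is not reported here.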

Additional observations from a re-analysis of the deposited data

How the results depend on the processing

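The count of 47 genes above 1 TPM was the same in each alternative run, including edgeR, other pseudocounts and each library left out. The 8 below became 12 with no filter, 5 when genes averaging under 0.1 TPM were left untested, and were 7 to 8 with a library left out. Over all genes the number below was 2374, or 6235 with no filter and 1372 with that minimum. Of 557 alternative values for single levels 555 kept direction and call, the exceptions being Akap14 (given above) and Pde4c, whose difference from 1 TPM of 0.06 (log2 scale) lay between -0.046 and 0.19 with a library left out and was negative without replicate 2. The median of 14.6 TPM was 18.3 over genes with a count, and 7.08 as counts per kilobase scaled to library size with TMM, which is another unit. Of 397 alternative ratios, 393 kept their call; the 14 higher and 33 lower calls became 13 to 15 and 32 to 33 with a library left out. Beside the changes given above, the ratio of Crtc1 to Creb1 lost its call without a variance trend (limma adjusted p = 0.0667). No gene passed a spread of 1.5 at 10 TPM, and 2 passed at a minimum of 1 TPM. Counts set the width of the intervals for low genes: Pde4c had 12 to 21 counts in a library. No paired analysis was possible because the labels give 1 group.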
